A study of Gallus gallus and Anas platyrhynchos and Coturnix japonica with 43 samples.

Results

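The genes described here encode nuclear subunits of the mitochondrial respiratory chain and of the ATP synthase, with 2 assembly factors of complex I. They were taken as every spot whose annotated gene symbol began with NDUF, UQCR or ATP5, was SDHA to SDHD, or began with COX followed by 4 to 8. This gave 44 of 6428 named genes, on 65 of 19200 spots of a spotted chicken cDNA array. Each of the 43 arrays held Cy3-labelled RNA of 1 tissue sample and, labelled with Cy5, a common pool of RNA from 4 chicken tissues (hypothalamus, liver, breast muscle and abdominal fat). Chicken liver, breast muscle and abdominal fat (4 arrays each) came from control broiler cockerels (Ross x Cobb) at 6 weeks. Chicken hypothalamus (4 arrays) came from male birds of the lean line aged 9 weeks, and neither line nor age can be told apart from that tissue. The other livers were of duck, Japanese quail and White turkey, with 4 arrays a bird, and of Tree sparrow and American kestrel, with 3. The other hypothalami were of duck, Japanese quail and White turkey, with 3 arrays a bird. Age at sampling and sex of these 5 other birds were not given in the sources used here. Kestrels and sparrows came from captive colonies, ducks from floor pens and quail from a randomly bred stock. Muscle and fat RNA were extracted by guanidine thiocyanate and a CsCl gradient and all other RNA with a kit, so the extraction method goes with these 2 tissues.

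The respiratory chain moves electrons from NADH and succinate to oxygen in the inner mitochondrial membrane. Complex I takes them from NADH and complex II from succinate, complex III passes them from ubiquinol to cytochrome c, and complex IV hands them to oxygen. Complexes I, III and IV pump protons, and the ATP synthase uses the return of the protons to make ATP. Most subunits are nuclear genes, transcribed in every tissue with mitochondria, and textbook accounts put high contents in heart and oxidative muscle fibres, while the breast muscle of broilers is mostly glycolytic.

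Complex I was measured by 19 genes on 26 spots, complex II by SDHA and SDHD on 5 spots, complex III by 6 genes on 9 spots, complex IV by 5 genes on 8 spots and the ATP synthase by 10 genes on 15 spots. NDUFAF1 and NDUFAF2, which help to build complex I and are not subunits of it, had 1 spot each. The annotation lists NDUFA4 with complex I by its symbol, although it is now known as a subunit of complex IV. Of the tissue isoforms of complex IV, COX4I1 and COX6A1, the general forms of subunits 4 and 6a, were among the named spots. No value of COX4I2, COX6A2, COX7A1, COX7A2 or COX8 was analysed here. ATP5F1AZ and ATP5F1AW are copies of the alpha subunit gene on the Z and the W chromosome. Male birds carry no W chromosome, and cDNA of such close copies can bind to each other's spots, so the signals of the 2 copies cannot be told apart.

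All values are log2 ratios, likely of sample over reference pool since each chicken tissue's markers then lie above 0 in it (apart from 1 muscle array), with every array centred on its own median. A level of 0 therefore means the typical spot of that array, and the results turn on differences between groups. A difference is given as a log2 value with its standard error (SE), and calls rest on an adjusted p below 0.05 in limma, taken over all 6428 genes of a comparison. The labels do not say whether arrays of a group came from separate animals, so the p-values speak of the spread between these arrays. Spot intensities were not used here, and the number of arrays sets the precision. Every sample was a piece of tissue, so fewer cells of a type and less RNA per cell cannot be told apart. In comparisons between birds, the amount of RNA and how well it matches the chicken cDNA on the spot cannot be told apart either.

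Marker genes put 3 arrays in doubt. The 12 muscle fibre markers had a median of -1.70 on replicate 4 of chicken muscle, against 1.03 to 1.46 on the other 3 muscle arrays. Sparrow liver replicate 1 read 1.41 on the same markers, against -1.88 and -1.34 on the other sparrow livers, and -1.74 on 11 hepatocyte markers. Duck hypothalamus replicate 3 read -0.54 on 11 neuron markers, against 0.15 and 0.94. Chicken liver, hypothalamus and fat each had their own markers above 0 on every array. Hepatocyte markers in other birds' livers were mostly lower than in chicken liver, where their array medians ran from 0.50 to 0.94. They ran from -0.20 to 0.68 in turkey, -0.34 to 0.86 in quail and -0.75 to 0.11 in duck. In kestrel they ran from -1.61 to -1.14 and in sparrow from -1.74 to -0.91, so the liver label was not borne out by these markers in kestrel and sparrow.

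Taken by group, the median level of the 44 genes lay a little below the typical spot everywhere. The group mean of the array medians ran from -0.60 ± 0.23 (SD, n = 3) in kestrel liver to -0.07 ± 0.13 (SD, n = 4) in turkey liver. In chicken it was -0.13 ± 0.11 (SD, n = 4) in muscle, -0.24 ± 0.23 (SD, n = 4) in hypothalamus, -0.25 ± 0.19 (SD, n = 4) in fat and -0.33 ± 0.26 (SD, n = 4) in liver. The 4 chicken tissues overlapped, and neighbours in that order did not differ beyond their spread. In all 12 groups 11 genes lay below 0 (25%), against 4.28% of all genes. They were ATP5C1, ATP5G1, ATP5H, ATP5I, ATP5J2, COX4I1, NDUFB6, NDUFV2, SDHA, UQCRB and UQCRQ, while 0 genes lay above 0 in all 12. These levels are ratios to a pool of the 4 chicken tissues, so a level below 0 does not mean a low amount of RNA. Why these genes lay below 0 was not tested.

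**Figure D1:**
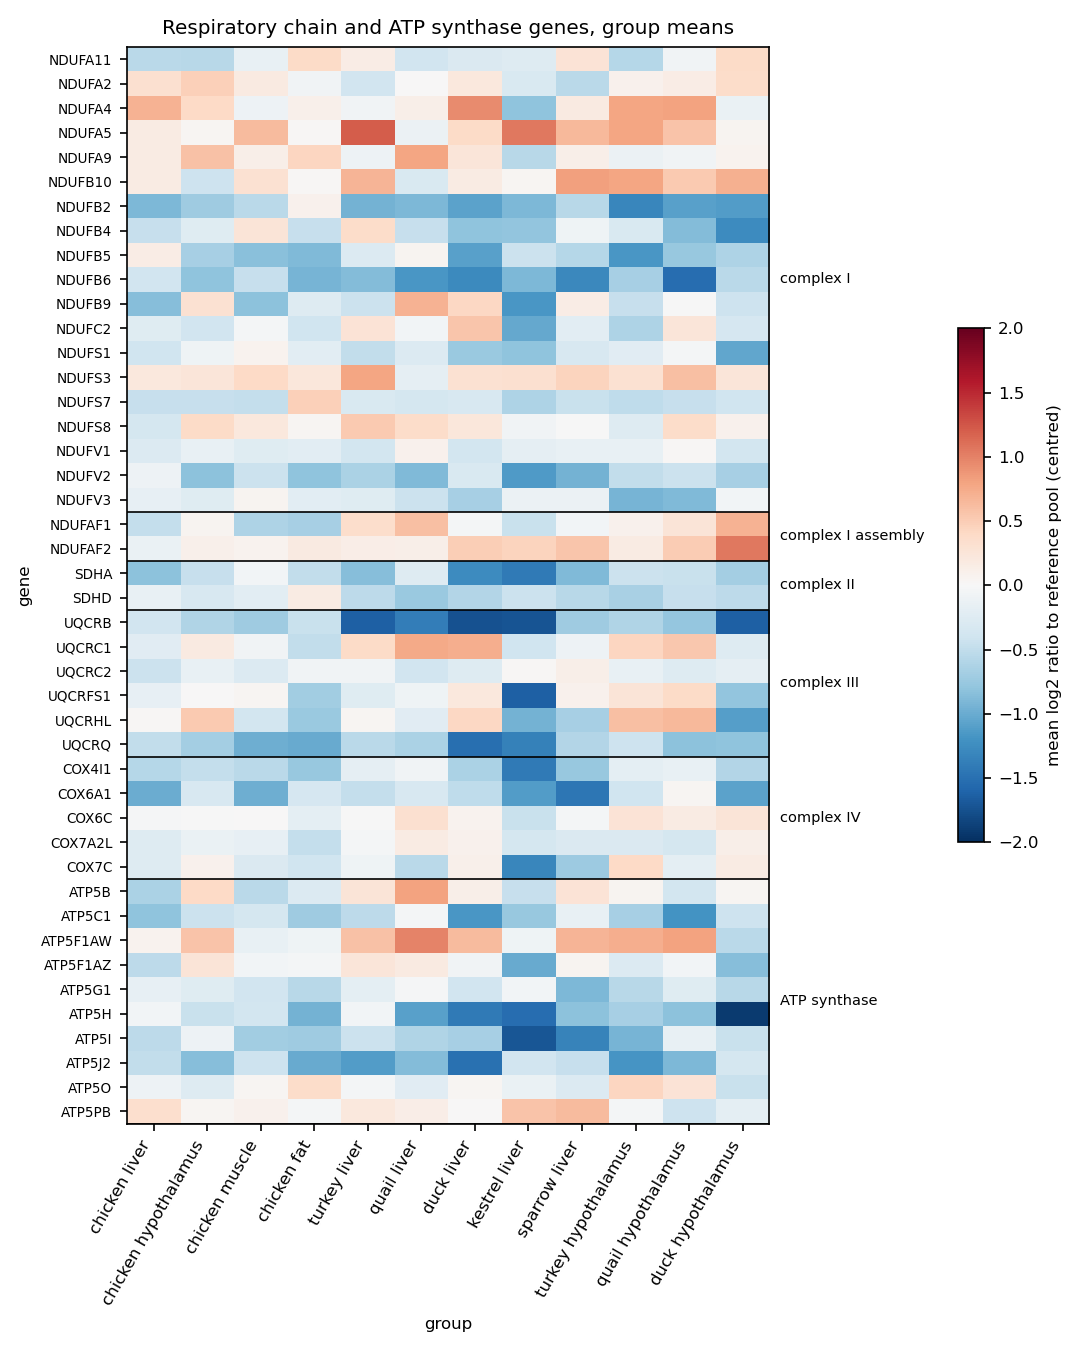
Mean log2 ratio to the reference pool (colour, blue below and red above 0) of each of the 44 genes (rows, by complex) in the 12 groups (columns, 3 or 4 arrays each). Blue prevails, most of all in the kestrel liver column, where 38 of 44 genes lie below 0.

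By complex, the order of the chicken tissues changed from one complex to the next. Complex I medians were -0.05 ± 0.25 (SD, n = 4) in muscle, -0.14 ± 0.09 (SD, n = 4) in fat, -0.22 ± 0.19 (SD, n = 4) in liver and -0.27 ± 0.28 (SD, n = 4) in hypothalamus. Complex II, with 2 genes, had its highest chicken median in muscle, at -0.13 ± 0.41 (SD, n = 4), and its lowest in liver, at -0.48 ± 0.12 (SD, n = 4). Complex III was lowest in fat, at -0.63 ± 0.50 (SD, n = 4), and highest in hypothalamus, at -0.08 ± 0.45 (SD, n = 4). Complex IV ran from -0.45 ± 0.26 (SD, n = 4) in liver to -0.20 ± 0.04 (SD, n = 4) in muscle. The ATP synthase ran from -0.35 ± 0.28 (SD, n = 4) in fat to -0.17 ± 0.31 (SD, n = 4) in hypothalamus. In each of these 5 sets the arrays of the highest and of the lowest chicken tissue overlapped. Without replicate 4, muscle was the highest chicken tissue for complex III, at -0.05 ± 0.28 (SD, n = 3), and for the ATP synthase, at -0.09 ± 0.15 (SD, n = 3). Its arrays overlapped with those of hypothalamus in both sets. Complex I in muscle fell to -0.12 ± 0.25 (SD, n = 3) without that array, close to fat. Among the other birds, kestrel liver was lowest for complex I (-0.50), complex III (-1.06) and complex IV (-0.91).

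**Figure D2:**
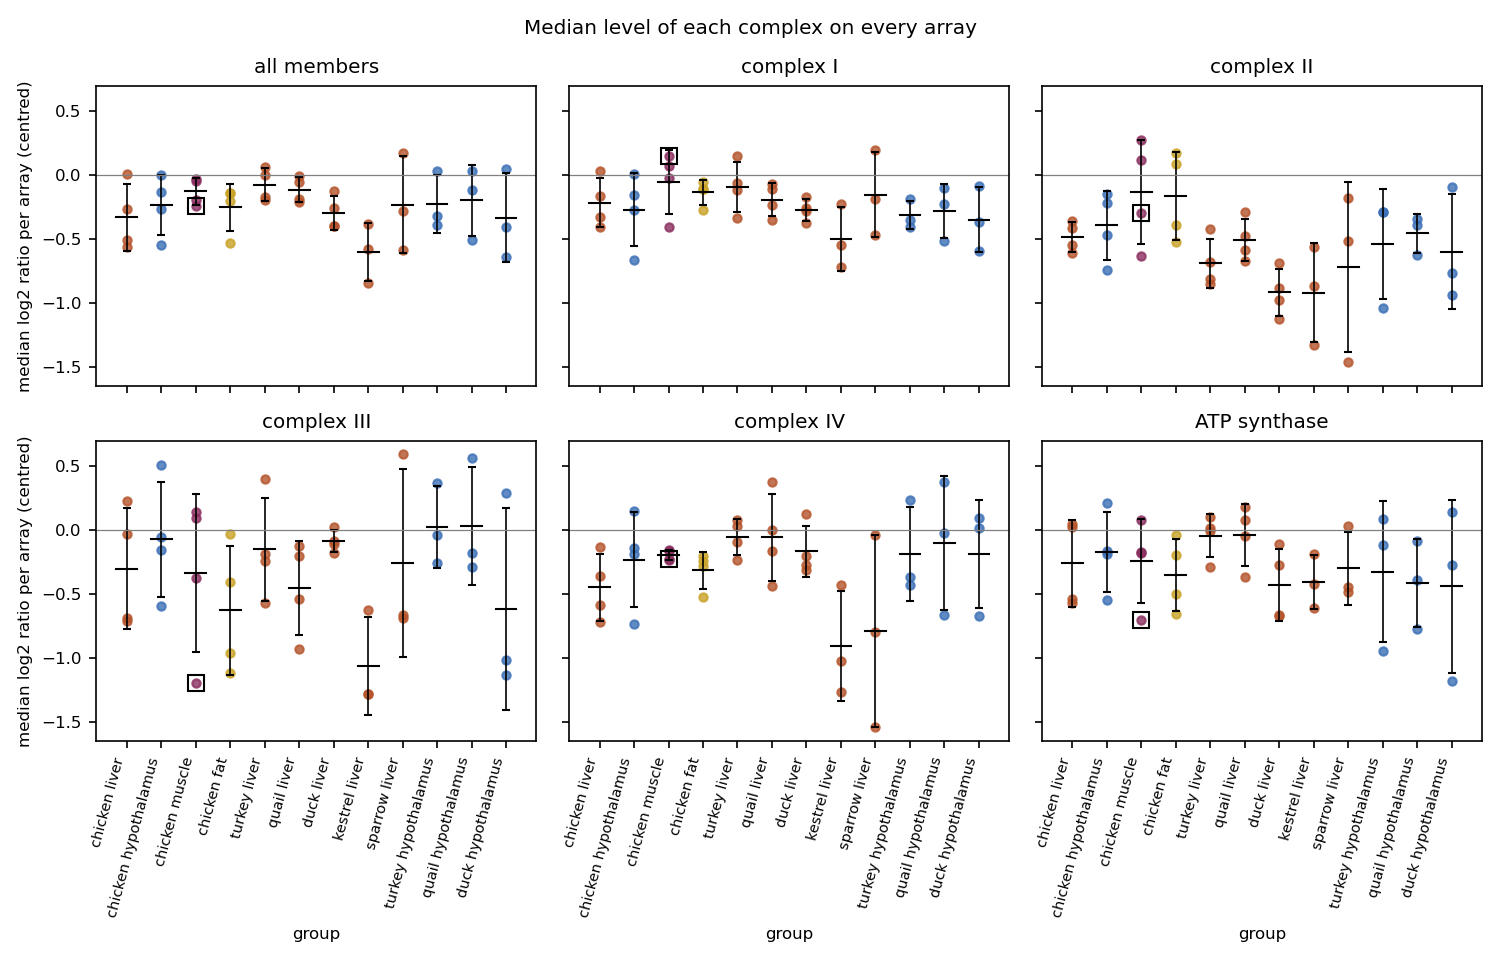
Median log2 ratio of all 44 genes and of the genes of each complex on every array (dots), by group, with the group mean (bar) and SD (whiskers). The square marks chicken muscle replicate 4, which lies at -1.20 for complex III and at 0.15 for complex I. Kestrel liver is low on average for complexes III and IV, and its highest arrays, at -0.63 and -0.43, lie within the range of chicken liver.

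The first question was whether the tissues of the chicken differ in these genes. None of the 44 was called in any of the 6 comparisons between chicken tissues, in limma with Benjamini-Hochberg adjustment. Among all genes, the share called was 1.73% for muscle against liver, 0.233% for muscle against hypothalamus, 1.15% for muscle against fat, 1.51% for liver against hypothalamus, 2.4% for liver against fat and 0.856% for hypothalamus against fat. At an unadjusted p under 0.05 the members passing were 1, 0, 1, 3, 5 and 4 of 44, in that order of comparisons. The same cut took 6.5%, 8.35%, 6.67%, 7.79%, 7.72% and 6.1% of all genes. The median half-width of a member's 95% interval was 0.84, from 0.49 to 1.29 by member. A typical member's difference was thus known only to within about 0.84. Groups that did not overlap were found for 1, 0, 1, 2, 5 and 3 members, against 4.54%, 6.14%, 4.81%, 5.71%, 6.21% and 5.13% of all genes. The 6 comparisons share their arrays in pairs and are not independent.

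The median difference of the 44 genes was 0.03 for muscle minus liver, -0.03 for muscle minus hypothalamus and 0.14 for muscle minus fat. It was -0.13 for liver minus hypothalamus, 0.13 for liver minus fat and 0.17 for hypothalamus minus fat, and the medians over all genes ran from -0.06 to 0.04. Single arrays carried much of these small medians. Muscle minus liver went to -0.04 without liver replicate 2, and liver minus hypothalamus to -0.01 without that array. Liver minus fat went to 0.01 without liver replicate 4 and to 0.0033 without fat replicate 4. Muscle minus hypothalamus turned to 0.04 without muscle replicate 4. Muscle minus fat went to 0.06 without fat replicate 1, and hypothalamus minus fat to 0.09 without hypothalamus replicate 2. Against fat, the genes above 0 numbered 28 of 44 in muscle, 25 in liver and 33 in hypothalamus, where 47.8%, 51.2% and 54.4% of all genes lay above 0. Complex III had the widest of these shifts, with medians of 0.21, 0.39 and 0.51 over fat. Complex IV lay above fat by a median of 0.19 in muscle, 0.16 in liver and 0.28 in hypothalamus, and the ATP synthase by 0.07, 0.16 and 0.31. Complex I, with medians of 0.17, -0.01 and 0.07, showed no such shift in liver. Complex II, with 2 genes, was at 0.03 over fat in muscle and below fat in liver (-0.32, with 0 of 2 genes above 0) and hypothalamus (-0.23). For SDHD, 1 of these 2 genes, the position below fat rests mostly on clone 2 of 3. Its means were 0.63 in fat, -0.59 in liver and -0.64 in hypothalamus. Clone 1 was at 0.08 in fat, 0.44 in liver and -0.01 in hypothalamus. Clone 3 was at -0.23, -0.29 and -0.32 in that order. Fat is the shared term of all 3 comparisons with it, and no member of complex III, complex IV or the ATP synthase was called in any of them.

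**Figure D3:**
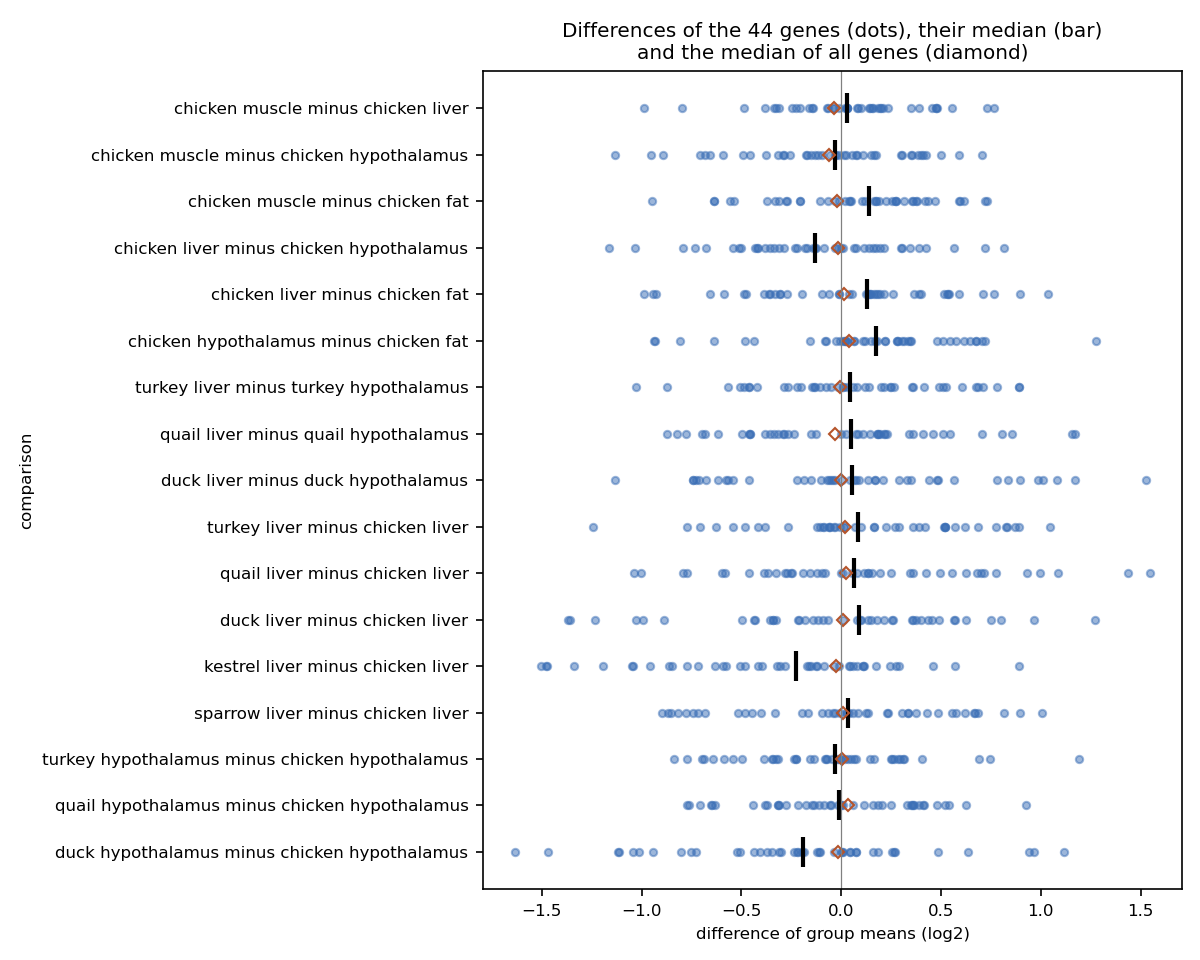
Difference of group means (log2, horizontal axis) of each of the 44 genes (dots) in 17 comparisons between groups, with the median of the 44 genes (bar) and of all 6428 genes (diamond). The bars stay near the diamonds in most comparisons. They lie left of them for kestrel liver, at -0.23, duck hypothalamus, at -0.19, and chicken liver minus hypothalamus, at -0.13. For muscle, liver and hypothalamus minus fat they lie to the right, at 0.14, 0.13 and 0.17.

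Breast muscle was read with and without replicate 4. That array stood apart by complex: complex III was at -1.20, against -0.38 to 0.14 on the other 3 arrays, and the ATP synthase at -0.71, against -0.18 to 0.07. Complex I went the other way, at 0.15 against -0.41 to 0.07, and complexes II and IV lay within or next to the other arrays, at -0.30 and -0.23. Without it the median of the 44 genes moved from 0.03 to 0.12 over liver, from -0.03 to 0.04 against hypothalamus and from 0.14 to 0.23 over fat. The complex III median over fat moved from 0.21 to 0.62, with 5 of 6 genes above 0, and that over hypothalamus from -0.19 to 0.10. The calls stayed at 0 of 44 in all 3 comparisons without that array, while 2.24%, 0.887% and 1.56% of all genes were called. The muscle fibre markers of replicate 4 also stood apart, at -1.70, and their part in these values was not tested.

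NDUFB4, an accessory subunit of the membrane arm of complex I, shows how far a single array can carry a mean. Its 4 muscle values in replicate order were 0.13, 1.74, 1.01 and -1.82, so replicate 4 lay far under the other 3. With all arrays muscle minus liver was 0.73 (SE 0.53, adjusted p = 0.999). Without replicate 4 it was 1.43 (SE 0.49, adjusted p = 0.176), muscle minus fat was 1.42 (SE 0.49, adjusted p = 0.216) and muscle minus hypothalamus was 1.20 (SE 0.49, adjusted p = 0.34). NDUFB4 was picked out after its values were seen. 

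NDUFS7 came nearest to a call. It is a core subunit of complex I that holds the last iron-sulphur cluster before ubiquinone, and 3 clones measured it. Its values in replicate order were 0.38, 0.27, 0.62 and 0.64 in fat. They were -0.42, -0.76, -0.17 and -0.51 in liver, -0.76, -0.62, -0.11 and -0.41 in muscle and -0.04, -0.27, -0.77 and -0.78 in hypothalamus. All 4 fat arrays lay above all 12 arrays of the other chicken tissues. Liver minus fat was -0.94 (SE 0.27, adjusted p = 0.0529), muscle minus fat -0.95 (SE 0.27, adjusted p = 0.0856) and hypothalamus minus fat -0.94 (SE 0.27, adjusted p = 0.108). With the replicate number as a block, liver minus fat was called at -0.94 (adjusted p = 0.0416), and without liver replicate 3 at -1.04 (adjusted p = 0.0468). That block joins equal numbers across all birds and tissues, so it is not a pairing within a bird. NDUFS7 was also called against fat in all 3 tissues with equal median absolute deviations, quantile normalisation and array weights. Centring within print blocks called it for muscle and liver only. Groups failed to overlap for 6.21%, 4.81% and 5.13% of all genes in these 3 comparisons. In the other birds' livers NDUFS7 was at -0.06, 0.05, -0.69 and -0.49 in turkey, 0.30, -0.32, -0.34 and -1.05 in quail, -0.21, -0.17, -0.46 and -0.43 in duck, -0.21, -0.96 and -0.71 in kestrel and -0.44, -0.29 and -0.59 in sparrow. In hypothalamus it was at -0.27, -0.53 and -0.73 in turkey, -0.37, -0.30 and -0.72 in quail and 0.22, -0.42 and -0.97 in duck. None of these arrays reached the fat arrays' lowest value except 1 quail liver array.

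The 3 clones of NDUFS7 did not share this pattern. Clone 1 read 0.74, 0.12, 1.11 and 1.23 in fat, against group means of -1.24 in hypothalamus, -1.43 in liver and -1.52 in muscle. Its difference from fat was -2.32 (SE 0.39) in muscle, -2.23 (SE 0.39) in liver and -2.04 (SE 0.39) in hypothalamus, with adjusted p of 0.000327, 0.000184 and 0.00197 over all 18547 clones. At that level 0.841%, 2% and 0.744% of clones were called. Clone 2 read -0.02, 0.28, 0.39 and 0.34 in fat, with group means of 0.13 in liver, -0.01 in hypothalamus and -0.30 in muscle. Clone 3 read 0.41, 0.40, 0.37 and 0.35 in fat and 0.40 on average in muscle. For clones 2 and 3 every difference from fat was between -0.55 and 0.02, with an adjusted p of 1. The gene's pattern thus rests on 1 clone of 3, and over the 12 group means the clones correlated at 0.22, 0.12 and -0.26 in pairs.

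**Figure D4:**
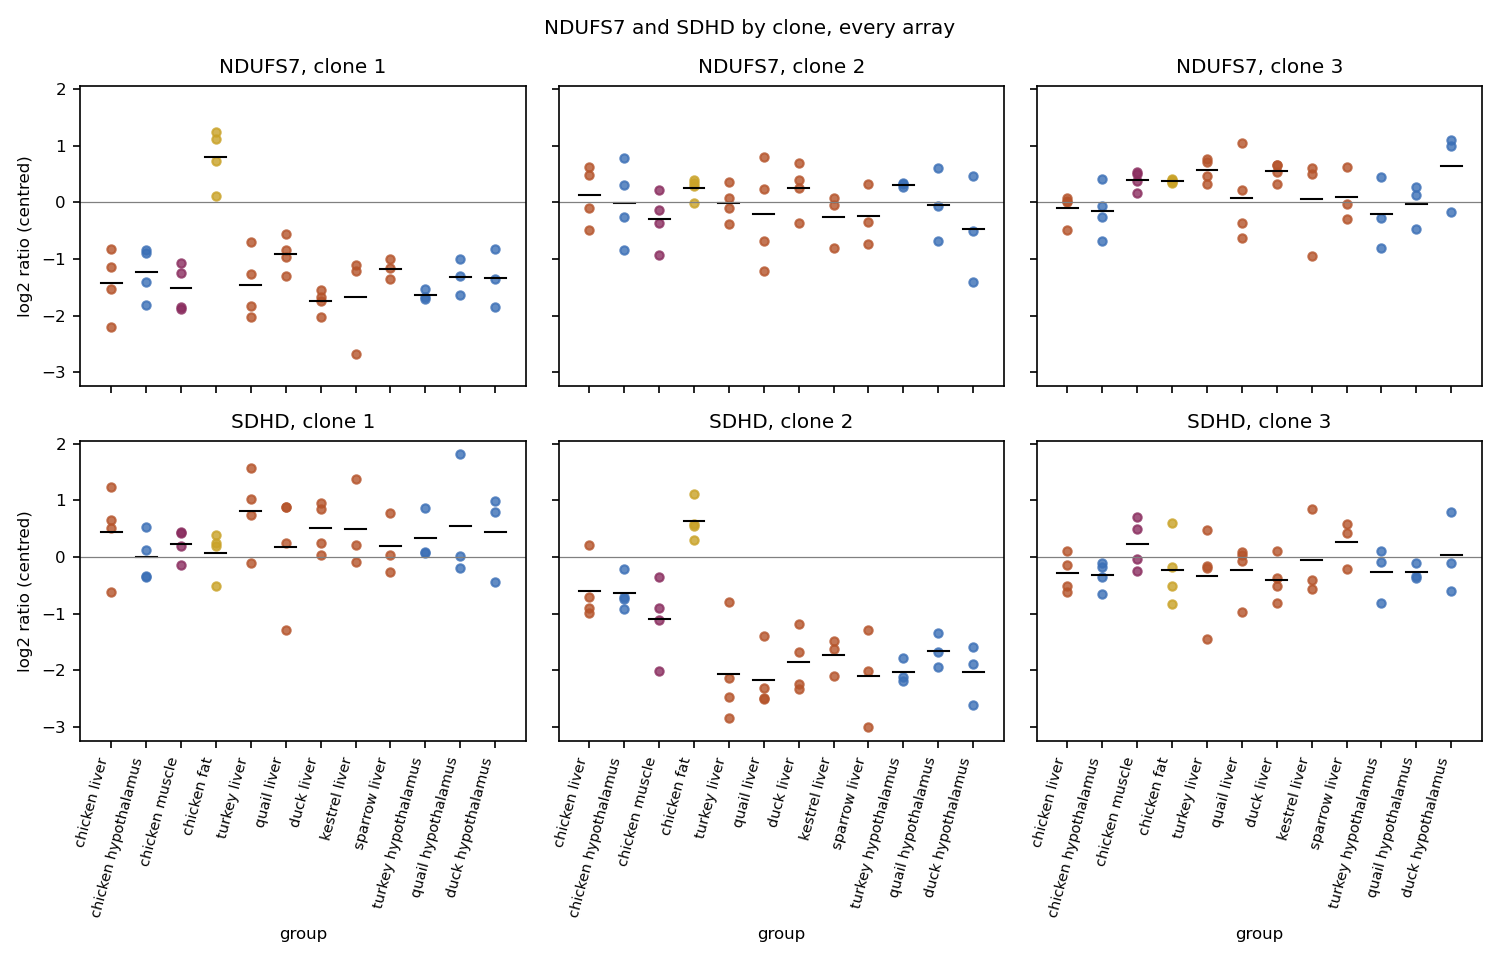
Log2 ratio of each clone of NDUFS7 (top) and SDHD (bottom) on every array (dots) by group, with group means (bars). Clone 1 of NDUFS7 and clone 2 of SDHD are high in chicken fat, at means of 0.80 and 0.63, and the other clones of the same genes are not.

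SDHD, the smaller membrane anchor of complex II, also had clones that disagreed, 3 of them on 4 spots. As a gene it read 0.17, 0.43, -0.15 and 0.19 in fat, 0.02, -0.09, -0.71 and 0.20 in liver, -0.25, 0.27, -0.17 and -0.69 in muscle and -0.41, -0.40, -0.10 and -0.38 in hypothalamus. These ranges overlapped. Clone 2 alone read 1.11, 0.29, 0.55 and 0.58 in fat, above every other array of the series. Its muscle minus fat difference was -1.73 (SE 0.42, adjusted p = 0.0272 over clones), and liver and hypothalamus lay 1.23 and 1.28 below fat, with adjusted p of 0.182 and 0.252. That clone also separated the birds, with chicken group means of -0.59 to -1.09 outside fat and means of -1.65 to -2.18 in all 8 groups of other birds. None of these differences between birds was called over clones, the smallest adjusted p being 0.0804 for quail liver minus chicken liver. Clones 1 and 3 read 0.08 and -0.23 on average in fat. SDHD was at -0.93, -0.07, -1.09 and -0.03 in turkey liver, -0.74, -1.29, -0.14 and -0.81 in quail liver and -0.65, -0.73, -0.35 and -0.59 in duck liver. It was at -0.77, 0.25 and -0.76 in kestrel liver and -0.48, -0.27 and -0.90 in sparrow liver. These livers lay mostly below chicken liver, and overlapped with it. That position rests on clone 2. For clones 1 and 3 the means of the other livers lay on both sides of the chicken liver means, 0.44 and -0.29. In hypothalamus SDHD was at -0.60, -0.96 and -0.38 in turkey, -0.63, -0.75 and 0.01 in quail and -0.72, -0.80 and -0.04 in duck.

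SDHA, the flavoprotein of complex II that oxidises succinate, had 1 spot. It read 0.49, 0.28, -1.09 and 0.10 in muscle, -1.11, -1.14, -0.11 and -0.92 in liver, 0.00, -1.47, -0.63 and 0.15 in fat and 0.12, -1.08, -0.34 and -0.55 in hypothalamus. The muscle mean was the highest of the 12 groups, at -0.05 ± 0.71 (SD, n = 4), and muscle replicate 3 lay as low as liver. Muscle minus liver was 0.77 (SE 0.41, adjusted p = 0.903). In the other livers SDHA was at -0.43, -0.77, -0.61 and -1.59 in turkey, -0.21, 0.12, -0.43 and -0.53 in quail and -1.12, -1.52, -1.02 and -1.37 in duck. It was at -0.36, -1.97 and -1.90 in kestrel and 0.12, -0.76 and -2.02 in sparrow, where the array in doubt, replicate 1, was the highest. Kestrel had the lowest group mean, and 2 of its 3 arrays lay below all 4 chicken livers. The hypothalami read 0.03, -1.11 and -0.20 in turkey, -0.62, -0.03 and -0.70 in quail and -0.81, -1.08 and -0.15 in duck.

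NDUFB9, an accessory subunit of the membrane arm, had the widest range of group means in complex I, and also wide spread within groups. It read -0.95, -1.96, -0.33 and -0.18 in chicken liver, -1.53, -0.95, -0.74 and -0.07 in muscle, -0.60, -1.30, 0.96 and -0.12 in fat and 1.55, 1.13, -0.86 and -0.58 in hypothalamus. Replicates 1 and 2 of hypothalamus were high and replicates 3 and 4 low, so its mean of 0.31 describes no single array. Other livers read 0.18, 0.02, -0.11 and -1.82 in turkey, 0.18, 2.57, -0.06 and 0.09 in quail, -0.57, 0.84, 0.54 and 0.87 in duck, -0.23, -1.94 and -1.31 in kestrel and 0.48, -0.09 and 0.06 in sparrow. The quail mean rests on replicate 2, and the quail and chicken livers did not overlap, as for 5.01% of all genes. Quail liver minus chicken liver was 1.55 (SE 0.64, adjusted p = 0.395). Sparrow liver also lay wholly above chicken liver, at 1.00 (SE 0.69, adjusted p = 0.881). The other hypothalami read 0.56, -0.40 and -1.55 in turkey, 0.98, -0.10 and -0.90 in quail and 1.11, -0.37 and -1.99 in duck, each widely spread.

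NDUFB5, also of the membrane arm, passed an unadjusted p under 0.05 in all 3 comparisons of chicken liver, and was called in none. It read 0.17, 0.36, -0.24 and 0.29 in liver, -0.54, -0.54, -0.66 and -0.93 in hypothalamus, -1.48, -0.98, -1.13 and 0.23 in muscle and -1.49, -1.67, -0.41 and 0.02 in fat. Liver lay above hypothalamus on every array, and overlapped with muscle through muscle replicate 4 and with fat. Liver minus fat was 1.03 (SE 0.38, adjusted p = 0.251) and liver minus hypothalamus 0.81 (SE 0.38, adjusted p = 0.576). Muscle minus liver was -0.99 (SE 0.38, adjusted p = 0.363), and -1.34 (SE 0.39, adjusted p = 0.0581) without muscle replicate 4. NDUFS8, which carries iron-sulphur clusters next to NDUFS7, was at -0.73 (SE 0.30, adjusted p = 0.376) for liver minus hypothalamus. None of these genes was called. NDUFB2 and NDUFA11, both of the membrane arm, had their highest chicken means in fat, at 0.09 and 0.38. Liver minus fat was -0.99 (SE 0.37, adjusted p = 0.277) for NDUFB2 and -0.93 (SE 0.40, adjusted p = 0.447) for NDUFA11.

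In complex III, UQCRFS1, the Rieske iron-sulphur protein, had the widest range of group means of all 44 genes. Its chicken values were -0.58, -0.67, 0.58 and 0.04 in liver, 0.82, 0.55, -1.07 and -0.25 in hypothalamus, -0.22, 0.51, 0.31 and -0.46 in muscle and -1.39, -1.09, 0.04 and -0.33 in fat. These overlapped, with fat the lowest on average. Kestrel liver read -0.47, -2.14 and -2.30, with 2 of its 3 arrays below every other array of the series. Those 2 arrays were also wide, with an SD over all spots of 1.14 and 1.05, against 0.62 on kestrel replicate 1. Turkey liver read 0.37, -0.22, -0.90 and -0.21, quail liver 0.52, -0.06, -1.32 and 0.55, duck liver 0.16, -0.11, 0.39 and 0.43 and sparrow liver 0.62, -0.15 and -0.23. Kestrel liver minus chicken liver was -1.48 (SE 0.54, adjusted p = 0.245). The hypothalami read 0.32, 1.02 and -0.55 in turkey, 1.14, 0.34 and -0.34 in quail and 0.81, -1.35 and -1.83 in duck, where replicate 1 stood over 2 log2 units above the other 2.

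UQCRC2, a core protein of complex III, had the second narrowest range of group means of the 44 genes, after NDUFV1. Both ranges are of means over clones that disagreed. Over the 12 group means the 2 clones of UQCRC2 correlated at -0.52, and the 3 clones of NDUFV1 at -0.52, -0.16 and 0.10 in pairs. In quail liver clone 1 of UQCRC2 had its highest group mean, 0.13, and clone 2 its lowest, -0.89. As a gene UQCRC2 read -0.25, -0.65, -0.40 and -0.42 in chicken liver, -0.28, -0.10, -0.12 and -0.07 in hypothalamus, 0.14, -0.01, -0.80 and -0.44 in muscle and -0.60, 0.22, 0.09 and 0.01 in fat. Each tissue overlapped with every other. The other livers read -0.08, -0.27, 0.16 and -0.09 in turkey, -0.59, 0.05, -0.55 and -0.43 in quail, -0.04, -0.11, -0.35 and -0.51 in duck, 0.07, -0.07 and 0.08 in kestrel and 0.23, -0.19 and 0.32 in sparrow. All 3 kestrel arrays lay above all 4 chicken livers, at a difference of 0.46 (SE 0.26, adjusted p = 0.656), so UQCRC2 was the 1 gene of complex III that was not lower in kestrel. All 3 sparrow arrays did too, and the difference was 0.55 (SE 0.26, adjusted p = 0.655), or 0.50 (adjusted p = 0.464) without the sparrow array in doubt. The hypothalami read -0.26, -0.17 and -0.02 in turkey, -0.14, -0.53 and -0.08 in quail and 0.00, 0.18 and -0.71 in duck.

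UQCRHL, annotated as a relative of the hinge protein of complex III, was at 1.27 (SE 0.55, adjusted p = 0.634) for hypothalamus minus fat. It was the widest difference of any member between chicken tissues, and its arrays overlapped: they read 0.95, 1.32, -0.83 and 0.68 in hypothalamus and -1.33, -1.16, -0.01 and -0.48 in fat. UQCRC1, the other core protein, lay higher in quail liver (0.76) and duck liver (0.73) than in chicken liver (-0.23), and neither difference was called.

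COX7C, a small subunit of the complex, read -0.87, -1.51, 0.84 and 0.53 in liver, 0.62, 0.60, -0.74 and -0.15 in hypothalamus, -0.11, -0.33, 0.05 and -0.78 in muscle and -0.53, -0.16, 0.25 and -1.15 in fat. The 4 liver arrays alone spanned more than the means of the 4 tissues. In other livers it read 0.64, -0.51, -0.01 and -0.48 in turkey, -0.17, -0.08, -1.28 and -0.60 in quail, 0.20, 0.47, -0.31 and 0.07 in duck, -0.73, -2.37 and -0.80 in kestrel and 0.33, -1.73 and -0.80 in sparrow. Kestrel was the lowest group and overlapped with chicken liver, at a difference of -1.05 (SE 0.56, adjusted p = 0.617). The hypothalami read 0.59, 0.96 and -0.37 in turkey, 0.89, 0.15 and -1.62 in quail and 1.14, -0.68 and 0.02 in duck.

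COX7A2L, a relative of subunit 7a that links complexes III and IV into supercomplexes in mammals, had 3 spots. It read -0.32, -0.67, 0.00 and -0.07 in chicken liver, -0.19, -0.29, 0.10 and -0.14 in hypothalamus, -0.14, 0.18, -0.48 and -0.23 in muscle and -0.53, -0.84, -0.31 and -0.24 in fat. All 16 arrays lay within about 1 log2 unit, with fat the lowest mean. The livers read 0.03, 0.22, -0.24 and -0.17 in turkey, 0.25, 0.38, 0.02 and 0.00 in quail, 0.03, -0.17, 0.12 and 0.39 in duck, 0.09, -0.12 and -1.02 in kestrel and 0.21, -0.06 and -1.03 in sparrow. The hypothalami read 0.23, -0.60 and -0.49 in turkey, 0.19, -0.13 and -1.11 in quail and 0.09, 0.16 and 0.12 in duck. Quail and duck livers were the highest among livers, and neither was called against chicken liver. The general isoforms COX4I1 and COX6A1 were at -0.54 and -0.98 in muscle, near their liver means of -0.57 and -1.00. In hypothalamus COX4I1 was at -0.48 and COX6A1 at -0.32, and in fat they were at -0.76 and -0.34.

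In the ATP synthase, ATP5H, subunit d of the peripheral stalk, had the widest range of group means. It read -0.56, -0.74, 0.07 and 1.02 in chicken liver, -0.22, -0.25, -0.57 and -0.71 in hypothalamus, -0.25, 0.27, 0.06 and -1.53 in muscle and -1.14, -1.59, -0.63 and -0.44 in fat. Fat was the lowest tissue on average, muscle replicate 4 lay at the level of the lowest fat arrays, and liver minus fat was 0.90 (SE 0.42, adjusted p = 0.591). The livers read -0.02, -0.39, 0.14 and 0.03 in turkey, -0.71, -1.27, -0.88 and -1.49 in quail, -1.63, -0.70, -2.33 and -1.03 in duck, -0.85, -2.41 and -1.32 in kestrel and -0.05, -1.05 and -1.39 in sparrow. Turkey liver lay within the range of chicken liver, while all 3 kestrel arrays lay below all 4 chicken livers. The hypothalami read 0.03, -0.19 and -1.84 in turkey, -0.62, -0.59 and -1.27 in quail and -1.47, -2.11 and -2.15 in duck, and the 3 duck arrays lay below all 4 chicken ones.

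ATP5G1, which encodes the c subunit of the membrane ring, had 3 spots. It read -0.53, -0.57, -0.03 and 0.48 in chicken liver, -0.12, -0.06, -0.48 and -0.29 in hypothalamus, -0.36, -0.03, -0.58 and -0.58 in muscle and -1.14, -0.22, -0.20 and -0.64 in fat, and the tissues overlapped. The livers read 0.04, 0.56, -0.54 and -0.83 in turkey, -0.44, 0.19, -0.03 and 0.17 in quail, -0.65, -0.14, -0.66 and -0.05 in duck, 0.03, -0.47 and 0.28 in kestrel and 0.00, -1.32 and -1.38 in sparrow. Sparrow replicates 2 and 3 were the lowest of these, while the array in doubt, replicate 1, was at 0.00. Sparrow liver minus chicken liver was -0.74 (SE 0.37, adjusted p = 0.689), and -1.19 (adjusted p = 0.129) without that array. The hypothalami read -0.48, -0.05 and -1.13 in turkey, -0.03, -0.08 and -0.61 in quail and 0.25, -0.80 and -1.10 in duck.

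ATP5B, the catalytic beta subunit, had a higher mean in chicken hypothalamus (0.40) than in liver (-0.63), at a liver minus hypothalamus difference of -1.03 (SE 0.48, adjusted p = 0.571). Its arrays overlapped, reading 1.11, 1.11, -0.72 and 0.12 in hypothalamus and -0.65, -1.26, 0.08 and -0.69 in liver. The entries annotated as the Z and W copies of the alpha subunit both had their highest chicken means in hypothalamus, at 0.26 and 0.56. The chicken samples came from male birds, so the W entry does not read a W copy in them. On hypothalamus replicate 3 the entries read -0.56 and -0.06. In liver they were at -0.53 and 0.06, in muscle at -0.05 and -0.14, and in fat at -0.04 and -0.08. Over the 43 arrays the signals of both entries correlated at 0.70, on arrays that share the pool and centring.

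The livers of 5 other birds were compared with chicken liver to ask how the chicken array reads them. No member was called, against 0.0467% of all genes in turkey, 0.513% in quail, 0.762% in duck, 1.21% in kestrel and 0.793% in sparrow. At an unadjusted p under 0.05 the members numbered 2, 8, 5, 7 and 3 of 44, against 5.16%, 9.75%, 7.89%, 8.82% and 7.16% of all genes. Groups did not overlap for 2, 3, 4, 5 and 4 members, against 3.31%, 5.01%, 6.24%, 8.37% and 6.6%. All 5 comparisons share the 4 chicken liver arrays. In kestrel liver 30 of 44 members lay below chicken liver, with a median of -0.23 against -0.03 over all genes, of which 47.6% lay above 0. All 5 genes of complex IV and 5 of 6 of complex III lay below, with medians of -0.42 and -0.91, while the ATP synthase had a median of 0.00. By array, kestrel replicates 2 and 3 lay below all chicken livers for the 44 genes and for complexes III and IV. Kestrel replicate 1 lay within the range of chicken liver in all of these sets. It read -0.38 for the 44 genes (chicken -0.56 to 0.01), -0.63 for complex III (chicken -0.71 to 0.22) and -0.43 for complex IV (chicken -0.72 to -0.13). Replicates 2 and 3 were also wide, with an SD over all spots of 1.14 and 1.05. That SD was 0.62 on replicate 1 and 0.61 to 0.88 on the chicken livers. Over the processing settings, scaling to equal spread among them, the kestrel median of the 44 ran from -0.30 to -0.15. The part of the spread in the levels by array was not tested. Kestrel was the lowest of the 12 groups for 13 of 44 genes (29.5%), against 15.3% of all genes. In turkey, quail, duck and sparrow the medians were 0.08, 0.07, 0.09 and 0.04, and sparrow went to -0.16 without its array in doubt. Hepatocyte, erythrocyte, leukocyte and endothelium markers also shifted in kestrel liver against chicken liver. The 3 erythrocyte markers had array medians of 0.45 to 1.50 in kestrel liver and of -0.92 to -0.08 in chicken liver. The 5 leukocyte markers ran from -1.33 to -0.76 in kestrel and from -0.35 to 0.13 in chicken, without overlap. The 4 endothelium markers ran from -1.16 to -0.41 and from -0.70 to 0.10. In quail liver, where the members' median was 0.07, erythrocyte markers ran from 0.13 to 1.39 and leukocyte markers from -0.99 to -0.67. Both lay apart from chicken liver there too. The part of these markers in the kestrel result was not tested.

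Single genes lay apart where the medians did not. UQCRB, a small subunit of complex III that binds ubiquinone, read -0.85, -0.25, -0.52 and 0.08 in chicken liver. It read -1.00, -1.49, -1.12 and -2.89 in turkey, -0.73, -1.12, -2.28 and -1.41 in quail, -1.54, -0.97, -2.14 and -2.33 in duck, -1.04, -1.51 and -2.62 in kestrel and 0.24, -0.97 and -1.41 in sparrow. All arrays of turkey, duck and kestrel lay below all chicken livers, and quail and sparrow overlapped with them. The difference from chicken liver was -1.36 (SE 0.41, adjusted p = 0.138) in duck and -1.34 (SE 0.44, adjusted p = 0.163) in kestrel. It was -1.24 (SE 0.41, adjusted p = 0.458) in turkey and -1.00 (SE 0.41, adjusted p = 0.395) in quail. In hypothalamus UQCRB was near the chicken level (-0.60) in turkey (-0.60) and quail (-0.77), and at -1.64 in duck. UQCRB was picked out after its values were seen.

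ATP5H lay below chicken liver at an unadjusted p under 0.05 in 3 birds, with -1.37 (SE 0.42, adjusted p = 0.151) in duck, -1.48 (SE 0.46, adjusted p = 0.124) in kestrel and -1.04 (SE 0.42, adjusted p = 0.395) in quail. In sparrow it was at -0.78 (SE 0.46, adjusted p = 0.831), and at -1.17 (SE 0.48, adjusted p = 0.25) without the array in doubt, and in turkey at -0.01 (SE 0.42, adjusted p = 0.999). Duck liver also read -1.20, -0.74, -1.25 and -1.16 for NDUFB5, below all chicken livers, at a difference of -1.23 (SE 0.38, adjusted p = 0.151). ATP5J2, subunit f of the membrane part of the synthase, was at -0.99 (SE 0.36, adjusted p = 0.309) in duck. In kestrel, NDUFA4 was at -1.50 (SE 0.49, adjusted p = 0.157), and its arrays did not overlap with chicken liver, as for 8.37% of all genes. Quail liver had 11 of 44 genes at their highest group mean (25%), against 9.49% of all genes. Replicate 2 carried several of these means. It read 2.83 for ATP5F1AW, 1.98 for ATP5B and 1.47 for NDUFV1. The other quail livers ran from 0.06 to 0.94, -0.34 to 0.81 and -0.78 to -0.07. ATP5C1 was instead highest on replicate 4, and the count without replicate 2 was not made. In quail liver ATP5B was at 1.44 (SE 0.48, adjusted p = 0.243) over chicken liver and the assembly factor NDUFAF1 at 1.08 (SE 0.45, adjusted p = 0.395).

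**Figure D5:**
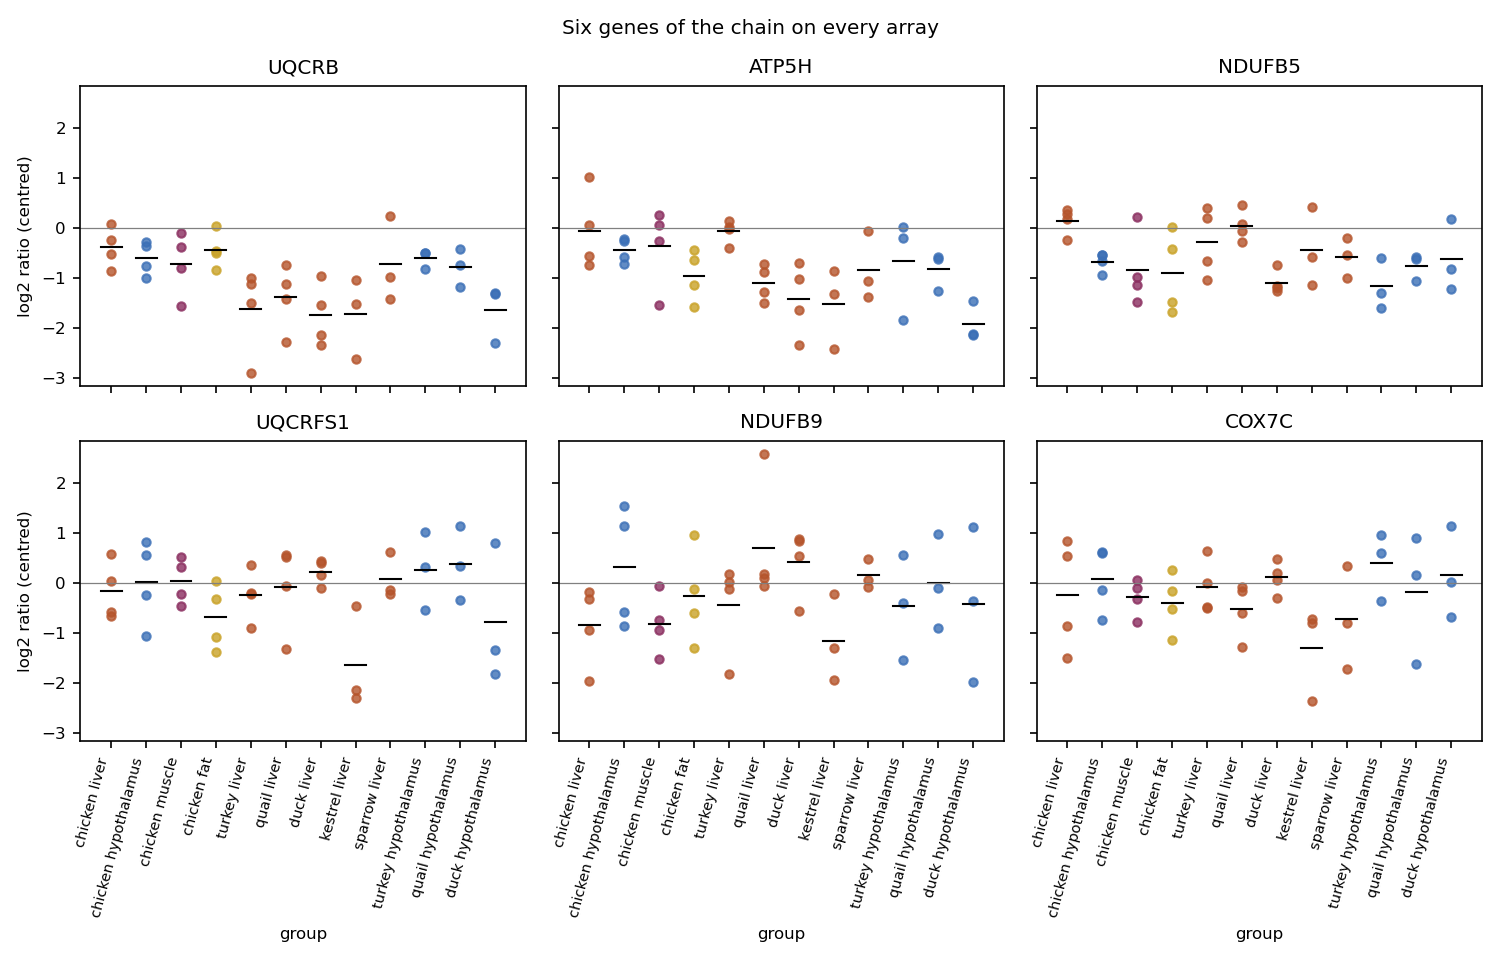
Log2 ratio to the reference pool of UQCRB, ATP5H, NDUFB5, UQCRFS1, NDUFB9 and COX7C on every array (dots) by group, with group means (bars). UQCRB lies lower in turkey, quail, duck and kestrel liver (means -1.39 to -1.74) than in chicken liver (-0.38), and the spread of NDUFB9 and COX7C within groups is as wide as that between them.

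The hypothalami of turkey, quail and duck were compared with that of chicken, of which all 3 comparisons share the 4 arrays. Again 0 of 44 members were called, against 0.14%, 0.0467% and 0.327% of all genes. At an unadjusted p under 0.05 the members numbered 0, 0 and 7, against 3.22%, 3.8% and 8.82% of all genes. Groups did not overlap for 1, 1 and 3 members, against 4.04%, 5.71% and 6.6%. The median of the 44 genes was -0.03 in turkey, -0.01 in quail and -0.19 in duck, where all 6 genes of complex III lay below chicken with a median of -0.62. In duck 28 of 44 members lay below chicken, and 48.9% of all genes lay above it. The 4 glia markers had array medians of -1.61 to -0.10 in duck and of 0.11 to 1.30 in chicken, without overlap, and neuron markers of -0.54 to 0.94 and 0.35 to 1.12. In quail, where the median of the 44 genes was -0.01, glia markers ran from -1.19 to -0.43, also without overlap with chicken. The part of these markers in the duck result was not tested. Without duck hypothalamus replicate 3, the array in doubt, the median of the 44 went to 0.05 and that of complex III to -0.30. ATP5H was at -1.47 (SE 0.46, adjusted p = 0.24) in duck, and at -1.35 (SE 0.48, adjusted p = 0.772) without that array. UQCRHL was at -1.63 (SE 0.59, adjusted p = 0.374), and at -1.22 (SE 0.61, adjusted p = 1) without it. The duck arrays also differed among themselves: complex III was at 0.29 on replicate 1 and at -1.13 and -1.02 on the other 2. Without replicate 1, UQCRHL was called at -2.47 (adjusted p = 0.0392).

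Liver and hypothalamus were also compared within each bird, where both tissues carry the same match to the chicken cDNA. No member was called in turkey, quail or duck, against 0.685%, 0.56% and 0% of all genes. At an unadjusted p under 0.05 the members numbered 3, 3 and 5, against 5.93%, 8.62% and 5.4%. Groups did not overlap for 1, 2 and 0 members, against 5.37%, 7.58% and 4.7%. The median difference of the 44 genes was 0.04 in turkey, 0.05 in quail and 0.05 in duck, and -0.11 in duck without replicate 3 of hypothalamus. In quail ATP5C1, the gamma subunit that turns in the synthase, lay higher in liver on every array, at 1.16 (SE 0.38, adjusted p = 0.213). In turkey NDUFS8 was at 0.78 (SE 0.32, adjusted p = 0.579) and UQCRB at -1.03 (SE 0.44, adjusted p = 0.667). In duck ATP5J2 was at -1.13 (SE 0.38, adjusted p = 0.905).

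Whether the liver minus hypothalamus difference itself changed from chicken to another bird was tested as an interaction. No member was called, against 0% of all genes for turkey, 0.0156% for quail and 0.0311% for duck. The intervals were wide here, with a median half-width of 1.23. At an unadjusted p under 0.05 there were 3, 2 and 7 members, against 1.71%, 5.35% and 5.71% of all genes. NDUFS8 differed by 1.51 (SE 0.44, adjusted p = 1) between turkey and chicken. ATP5B differed by 2.21 (SE 0.71, adjusted p = 0.886) and ATP5C1 by 1.54 (SE 0.51, adjusted p = 0.886) between quail and chicken. UQCRHL differed by 2.04 (SE 0.81, adjusted p = 0.803) between duck and chicken.

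Correlations between the subunits were low at the median. Over the 43 arrays, which share the pool and the centring, the median correlation was 0.05 for 243 pairs of genes in the same complex and 0.10 for 703 pairs in different complexes. Over all pairs of named genes it was 0.02. Above 0.3 lay 25.3% of all member pairs and 16.9% of all pairs of named genes. With spots of 1 clone at only 0.40 (SDHD) and 0.23 (UQCRC2), these values cannot tell whether the subunits moved together. The closest pairs were ATP5F1AW with UQCRC1 at 0.79, ATP5B with NDUFB9 at 0.77 and UQCRFS1 with UQCRHL at 0.74. The most opposed were COX6A1 and NDUFB10 at -0.67. The residual spread of a member within groups had a median SD of 0.60, against 0.57 for all genes, and its group means ranged over a median of 1.24, against 1.03.

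Clones of the same gene followed each other little. The 24 pairs of clones in 14 genes correlated over the 12 group means at a median of 0.11, from -0.57 for COX6C to 0.74 for COX7A2L, and 15 pairs were above 0. Over the 43 arrays the median was 0.14. For 1 clone each of SDHD and UQCRC2, spotted on 2 positions, the spots correlated at 0.40 and 0.23 over the arrays and lay a median of 0.64 and 0.55 apart. A gene on 1 spot, such as SDHA, UQCRFS1, ATP5H or UQCRB, has no such check.

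Other mitochondrial genes were read from lists of electron carriers (4 of 15 measured), assembly factors (13 of 27), the citrate cycle with pyruvate dehydrogenase (12 of 18), transport (10 of 11) and biogenesis regulators (9 of 14). Of these 48 genes 1 was called in each of 3 comparisons and 0 in the other 17. In those 3 comparisons 1.73%, 1.51% and 1.21% of all genes were called, so 1 of 48 is near the background. SLC25A4, the muscle form of the carrier that exchanges ADP and ATP, was higher in chicken muscle than in liver by 1.48 (SE 0.40, adjusted p = 0.0437), at 0.80 against -0.68. Its muscle arrays read 0.57, 2.06, 1.10 and -0.55, and without replicate 4 the difference was 1.93 (SE 0.40, adjusted p = 0.00216). SLC25A12, an aspartate and glutamate carrier, was higher in chicken liver than in hypothalamus by 2.03 (SE 0.45, adjusted p = 0.0071), at 0.59 against -1.44. It was lower in kestrel liver than in chicken liver, at a difference of -1.88 (SE 0.49, adjusted p = 0.0396). CYCS, cytochrome c, was at 0.20 in chicken muscle, -0.12 in liver, -0.37 in fat and -0.45 in hypothalamus, and PPARGC1A, a coactivator of mitochondrial biogenesis, at 0.08, 0.27, -0.13 and 0.60. Neither was called. The median difference of the 48 genes lay between -0.10 and 0.11 in all 20 comparisons.

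Over the 12 groups, the genes outside the chain whose means followed the median of the 44 most closely were HSPA13 at a correlation of 0.89, H2AFY at 0.88, CBLL1 and KCNMB1 at 0.86 and SOD2 at 0.85. SOD2 encodes the superoxide dismutase of the mitochondrial matrix. These genes were picked as the highest correlations among all named genes outside the chain. Each had its lowest mean in kestrel liver, at -0.89, -1.00, -0.71, -0.34 and -1.27 in that order, where the 44 were lowest too. A link of these genes to the chain was not tested.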

How the data were processed

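The deposited values were linear ratios of one channel over the other for every spot, per the labels with Cy3 on the sample and Cy5 on the reference pool, from 25 µg of total RNA. For scanner, background correction and normalisation the sources used here name nothing. Dyes were not swapped, per the labels, and the reference cDNA was pooled anew for each hybridisation day, so a dye bias or a day's pool can move a level. The direction was read as sample over reference. Of 903 pairs of arrays, 11 correlated below -0.3, down to -0.398, and 0 of these were of the same tissue. Spot brightness was not used here, so no depth or detection limit can be given.

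Ratios were taken to log2, centred on each array's median, and averaged from spots to clones and from clones to genes (6428 genes, on the 10601 of 19200 spots with a gene name). Arrays were not scaled to equal spread. The SD of the log2 ratios over all spots ran from 0.50 on chicken hypothalamus replicate 4 to 1.19 on duck hypothalamus replicate 3. The part of this spread in extreme values of single genes was not tested. Group means of all 43 arrays were fitted in limma 3.58.1 (R 4.3.3) with empirical Bayes variances, and 20 comparisons were adjusted by Benjamini-Hochberg over all genes, with a threshold of 0.05. The fit was tested on simulated data. Tables and plots used Python 3.11.15, pandas 2.3.3 and matplotlib 3.10.9. Values on every array are given by rule for 10 of the 44 genes: in each complex, the gene with the widest range of group means and the gene on the most spots (NDUFS7 and NDUFV1 tied in complex I, and the first by symbol was taken). Other members are named for an unadjusted p under 0.05, as tissue isoforms or gene copies, or after their values were seen (UQCRB, NDUFB4, NDUFB5, ATP5F1AW and ATP5F1AZ). The members and the gene lists were chosen with earlier results of these data known. Same-numbered arrays deviated together for muscle and fat (correlations of 0.171 to 0.362 in 4 of 4 pairs) and for turkey liver and hypothalamus (0.257 to 0.577 in 3 of 3). Mixed or weak were muscle and liver (-0.295 to 0.16), liver and fat (-0.081 to 0.558), and liver and hypothalamus in quail (0.036 to 0.487) and duck (-0.068 to 0.214). Chicken hypothalamus correlated below 0 in every pair with fat (-0.674 to -0.095), liver (-0.576 to -0.034) and muscle (-0.367 to -0.116). This pairing, read from the replicate numbers in the titles, was borne out by the data only in part. The main fit used no pairing and no replicate block. 1 quail hypothalamus array carries different replicate numbers in its title and description, and the title was followed. Alternatives covered scaling, clone averaging, variance estimation, array weights, the replicate block and leaving out arrays.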

Additional observations from a re-analysis of the deposited data

Results flagged for a closer look

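In 154 checks of a group of 4 arrays for 1 array standing apart, 7 did so by Dixon's test, and chance alone marks about 1 group in 20. Groups of 3 arrays, among them sparrow liver and duck hypothalamus with their arrays in doubt, were not checked. NDUFB9 was at 2.57 on quail liver replicate 2, against -0.06 to 0.18 on the other 3 arrays, and at -1.82 on turkey liver replicate 4, against -0.11 to 0.18. NDUFB5 was at -0.74 on duck liver replicate 2, against -1.25 to -1.16. ATP5F1AZ was at 0.35 on chicken fat replicate 3, against -0.19 to -0.15, and at -0.39 on chicken liver replicate 3, against -0.58 to -0.56. SDHD was at -0.10 on chicken hypothalamus replicate 3, against -0.41 to -0.38. The median of all 44 genes was at -0.53 on chicken fat replicate 1, against -0.20 to -0.14.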

How the results depend on the processing

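The count of 0 members called held in all 20 comparisons without centring, with the median of clones, with a trended robust prior and without the 3 arrays in doubt, and in the 6 chicken comparisons with chicken arrays only, a setting chosen after seeing the data. Muscle, liver and hypothalamus minus fat gave 1, 1 and 1 members with equal median absolute deviations, and 1, 2 and 1 with quantile normalisation, where NDUFB2 joined at -1.16 (adjusted p = 0.0248) for liver. NDUFS7, whose pattern rests on 1 clone of 3, was among the calls in each of these comparisons. It was also among them in every comparison with fat below that holds a call. Of all genes, 1.31%, 3.13% and 2.32% were called in the first setting and 2.4%, 3.81% and 2.43% in the second, against 2.27% for 1 member and 4.55% for 2. Centring within print blocks gave 1 for muscle and 2 for liver, with NDUFB5 at 1.20 (adjusted p = 0.0334), and 1 for duck minus chicken liver, ATP5H at -1.63 (adjusted p = 0.0322), where 1.52%, 2.88% and 1.31% of all genes were called. A fit over clones gave 2, 1 and 1 of 63 against fat, where 0.841%, 2% and 0.744% of all clones were called. With the replicate block liver minus fat gave 1, NDUFS7 (adjusted p = 0.0416; 2.5% of all genes), and the block changed no other call. With only the groups compared, duck minus chicken liver gave 1, NDUFB5 (adjusted p = 0.046; 1.12% of all genes). Array weights, whose estimate stopped before its tolerance, gave 23 calls in 9 comparisons: 1 each against fat for muscle, liver and hypothalamus, 1 for quail and 3 for duck liver minus hypothalamus, 4 for duck minus chicken liver, 1 for quail and 6 for duck minus chicken hypothalamus, and 5 in the duck interaction. Of all genes, 2.47%, 4.79%, 2.68%, 5.26%, 1.76%, 3.02%, 5.8%, 10.1% and 2.78% were called there, in that order. Leaving out 1 array gave 0 to 1 calls in liver minus fat (1 without liver replicate 3, adjusted p = 0.0468; 2.49% of all genes) and 0 to 1 in duck minus chicken hypothalamus (1 without duck replicate 1; 1.2%). Without centring, the median of the members went to 0.24 for muscle minus hypothalamus, -0.18 for quail liver minus hypothalamus, 0.20 for turkey minus chicken hypothalamus and -0.32 in the quail interaction. Leaving out 1 array turned the sign of the members' median in 14 of 20 comparisons. With 1 array left out, the sign held for kestrel liver (-0.34 to -0.16), the turkey interaction (0.09 to 0.32) and liver minus hypothalamus in chicken (-0.20 to -0.01). It also held there against fat for muscle (0.06 to 0.23), liver (0.0033 to 0.16) and hypothalamus (0.09 to 0.27). Over the other settings the sign did not hold for liver minus hypothalamus in chicken, which reached 0.06. Nor did it hold for hypothalamus minus fat, which reached -0.0049. The cause of these moves was not tested. The number of arrays and unlike clones of 1 gene limit all values.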
